A study of Mus musculus with 2 samples.

Results

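The DNA replication genes were examined as a set of 41 genes, taken by symbol from the 54146 genes that the 2 libraries of the study list. The set holds the licensing factors, the subunits of the replicative helicase, the sliding clamp with its loader, the single-strand binding proteins, the replicative polymerases, the enzymes that finish the lagging strand, the enzymes that supply deoxynucleotides, and 3 further S phase genes. It was not chosen on a measured value, though earlier results of these data were known when it was chosen. All 41 genes were found in both libraries, and all 41 had at least 200 UMIs over both, from 337 for *Rfc4* to 9598 for *Pcna*.

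The study measured single mouse ES cells, derived from the inner cell mass, by inDrop, a droplet method that tags each captured mRNA near its 3′ end with a cell barcode and a unique molecular identifier (UMI). One library, whose treatment label is untreated, held wild-type cells and one held *Lin28a* knockout cells, LIN28A being an RNA-binding protein of pluripotent cells that blocks the maturation of let-7 microRNAs. Both were E14 ES cells grown for 2 days on gelatin with MEF feeder cells in LIF/2i medium. The wild-type library came from 1 transfected clone that had kept its *Lin28a* gene and the knockout library from 1 CRISPR/Cas9 clone cut in the second exon, so genotype, clone and library cannot be told apart. With 1 library per condition no test was possible, and every interval given is a 95% interval for counting error only.

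Replication begins when the origin recognition complex, with CDC6 and CDT1, loads the ring of MCM2 to MCM7 onto DNA in G1. In S phase CDC45 and the GINS complex turn that ring into the active helicase, polymerase alpha with its primase starts each strand, replication factor C loads the PCNA clamp, and polymerases delta and epsilon extend. Many of these genes are transcribed at the G1/S boundary under E2F factors, and mouse ES cells, with a short G1, spend most of their cycle in S phase.

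With the cell limits of the study (500 UMIs or more, mitochondrial share up to 0.2), the wild-type library kept 1856 cells with 11639256 UMIs and the knockout library 1622 cells with 9340855 UMIs, at a median of 6140 and 5064 UMIs per cell. *Lin28a* itself was at 107 and 36.6 CPM (UMIs of a gene per 1000000 UMIs of its library), a ratio of 0.343 (0.304 to 0.387). The 10 ES-like markers were detected in both libraries at a summed 4717 and 4861 CPM. The 11 feeder fibroblast-like markers were also detected in both, at 1691 and 965 CPM, and 44 wild-type and 26 knockout cells were classed as feeder cells by their collagen UMIs. The 6 primitive endoderm-like markers summed to 27.5 and 33.2 CPM, and the 8 markers of 2C-like cells to 2.66 and 2.89 CPM, 5 and 3 of them detected. The 84 ribosomal protein (RP) genes took 10.4% and 11.3% of all UMIs. Barcodes are only numbered within each library, so barcodes shared between the libraries could not be counted.

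The promoters of the set were read first, since E2F sites are a feature that many replication genes are known to share. A window from 250 bases before to 50 bases after the start site was found for 33 of the 41 genes in RefSeq (build GRCm38.p6), and *Gmnn*, *Mcm4*, *Gins1*, *Gins2*, *Rfc2*, *Prim2*, *Pole* and *Tipin* were not in that table. An E2F motif in one of the forms TTTCCCGC, TTTCGCGC, TTTGCCGC and TTTGGCGC, on either strand, stood in a window of 11 of the 33 genes (33.3%), against 2.60% of the 27025 genes in the table. CCAAT, on either strand, stood in a window of 21 of the 33 (63.6%), against 41.1%. The 5 promoters below are those with at least 2 E2F matches, chosen after the matches were seen. The E2F letters are in capitals, and where 2 matches overlap they form 1 longer run.
*Mcm3*, chr1:20820263-20820562, - strand: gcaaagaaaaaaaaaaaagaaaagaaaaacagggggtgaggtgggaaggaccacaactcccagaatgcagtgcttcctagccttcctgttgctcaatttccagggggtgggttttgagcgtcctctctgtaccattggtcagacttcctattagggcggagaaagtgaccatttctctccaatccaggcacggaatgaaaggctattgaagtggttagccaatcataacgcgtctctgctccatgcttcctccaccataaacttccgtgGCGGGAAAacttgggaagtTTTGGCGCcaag
*Mcm5*, chr8:75109259-75109558, + strand: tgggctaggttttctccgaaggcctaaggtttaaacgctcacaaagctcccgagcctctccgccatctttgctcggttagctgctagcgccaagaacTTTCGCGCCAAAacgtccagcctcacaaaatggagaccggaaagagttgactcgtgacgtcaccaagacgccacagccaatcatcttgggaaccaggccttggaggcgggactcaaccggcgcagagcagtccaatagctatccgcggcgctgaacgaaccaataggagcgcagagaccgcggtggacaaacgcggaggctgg
*Mcm6*, chr1:128359656-128359955, - strand: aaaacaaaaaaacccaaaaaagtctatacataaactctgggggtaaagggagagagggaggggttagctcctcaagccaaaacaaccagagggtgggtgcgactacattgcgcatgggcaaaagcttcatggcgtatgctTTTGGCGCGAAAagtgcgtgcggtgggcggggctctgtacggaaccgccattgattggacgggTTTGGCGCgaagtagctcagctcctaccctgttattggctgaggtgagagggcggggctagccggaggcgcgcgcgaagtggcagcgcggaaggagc
*Mcm7*, chr5:138171834-138172133, - strand: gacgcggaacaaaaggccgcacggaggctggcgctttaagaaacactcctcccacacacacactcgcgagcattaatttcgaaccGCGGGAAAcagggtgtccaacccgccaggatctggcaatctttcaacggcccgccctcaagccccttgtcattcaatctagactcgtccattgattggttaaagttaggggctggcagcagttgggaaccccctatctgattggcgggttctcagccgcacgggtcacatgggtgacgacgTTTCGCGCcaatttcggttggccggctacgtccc
*Rfc3*, chr5:151651159-151651458, - strand: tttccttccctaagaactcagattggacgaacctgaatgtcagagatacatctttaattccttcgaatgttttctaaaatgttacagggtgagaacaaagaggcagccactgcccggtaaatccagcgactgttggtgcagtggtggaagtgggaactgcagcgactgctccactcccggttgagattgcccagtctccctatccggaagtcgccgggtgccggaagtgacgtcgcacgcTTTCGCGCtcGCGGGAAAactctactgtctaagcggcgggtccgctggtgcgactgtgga
The MCM ring gives 4 of these 5. *Mcm5* had a run of 2 overlapping matches and *Mcm6* the same kind of run with a further match nearer the start site. The letters did not sort the genes by how they differed between the libraries. The 11 genes with an E2F match had knockout over wild-type ratios from 0.650 to 1.37 with a median of 0.922, and the 22 without one from 0.484 to 1.22 with a median of 0.913.

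Summed, the replication genes were slightly lower in the knockout library, but the difference was uneven and split single complexes. The 41 genes summed to 5337 CPM (5295 to 5379) in wild-type cells and to 4888 CPM (4843 to 4933) in knockout cells, a ratio of 0.916 (0.905 to 0.927). The ratio was below 1 for 26 genes and above 1 for 15, with a median of 0.945, beside 1.01 over all 9835 genes with at least 200 UMIs. Its interval lay wholly under 1 for 21 genes (51.2%), beside 29.2% of all genes, and wholly over 1 for 8 (19.5%), beside 29.9%. At least 1.5-fold lower were 3 genes, *Pcna*, *Rfc3* and *Rfc4*, or 7.32% of the set beside 8.45% of all genes. None was at least 1.5-fold higher, beside 6.49% of all genes.

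**Figure D1:**
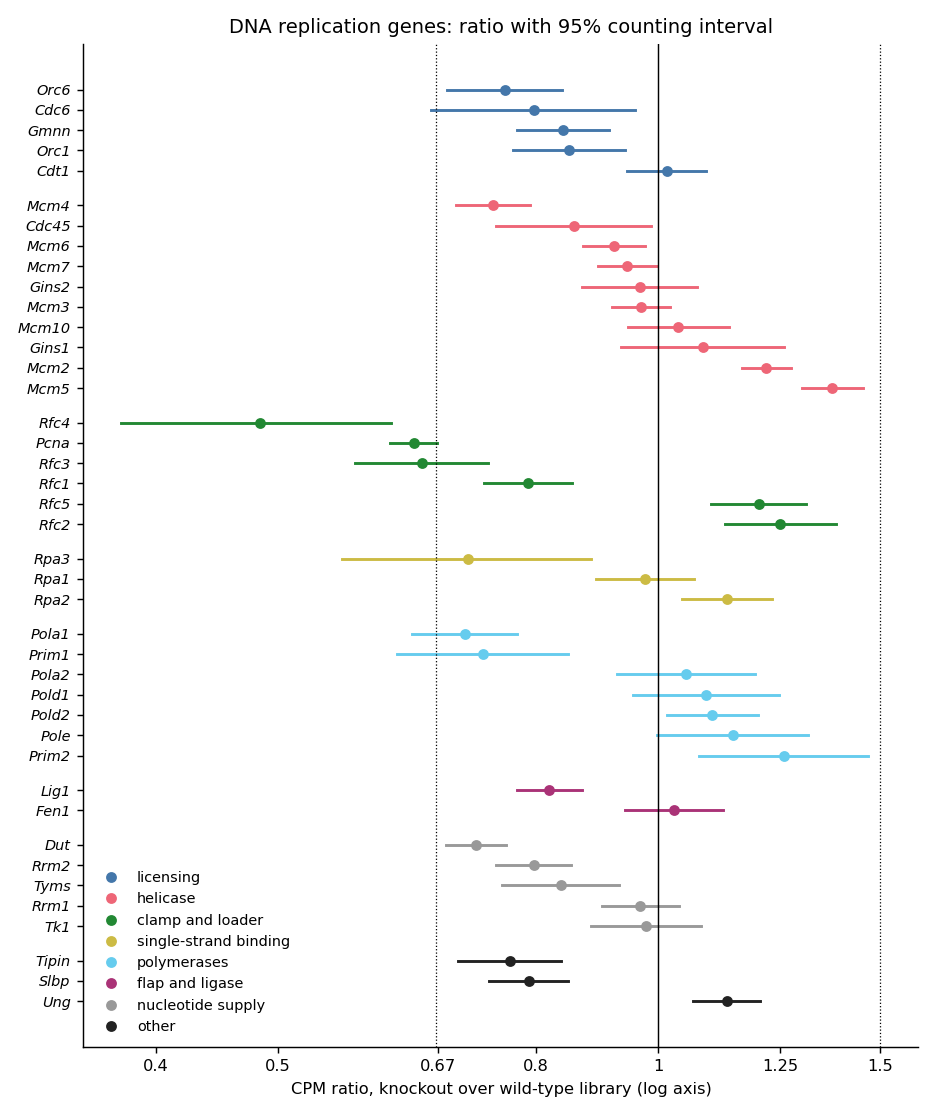
Each point is the CPM ratio of the knockout over the wild-type library for 1 gene, on a log axis, with its 95% counting interval as a bar and the genes ordered within their role groups. The dotted lines mark 1.5-fold. *Pcna*, *Rfc3* and *Rfc4* lie left of the lower line, no gene lies right of the upper one, and *Mcm5* at 1.37 is the farthest right.

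Among the licensing genes, 4 of 5 were lower in the knockout library, and the group summed to a ratio of 0.881 (0.844 to 0.919). *Orc6*, a subunit of the origin recognition complex, had the smallest ratio, with 80.6 CPM in wild-type and 60.9 CPM in knockout cells, a ratio of 0.756 (0.680 to 0.840). *Orc1*, the subunit that helps the complex bind origins, was at 80.3 CPM in wild-type and 68.3 CPM in knockout cells, a ratio of 0.850 (0.768 to 0.941). *Cdc6*, the loading ATPase, was at 25.5 CPM in wild-type and 20.3 CPM in knockout cells, a ratio of 0.798 (0.661 to 0.960). *Gmnn*, the geminin that blocks CDT1 after origins have fired, had a ratio of 0.841 (0.773 to 0.914) at 120.2 CPM in wild-type and 101 CPM in knockout cells. *Cdt1*, the MCM loader itself, had a ratio of 1.02 (0.945 to 1.09) at 143 CPM in wild-type and 146 CPM in knockout cells, and its interval included 1. Set against the median of all genes of like GC content, the 2 were nearly equal, at 0.818 and 0.843.

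The helicase genes were split. The MCM ring holds 1 copy of each of its 6 subunits, yet the ratios ran from *Mcm4* to *Mcm5* with intervals far apart. *Mcm4* (chr16:15623897-15637400, - strand) had 197 CPM (189 to 205) in wild-type cells and 146 CPM (138 to 154) in knockout cells, a ratio of 0.740 (0.691 to 0.791). *Mcm5* (chr8:75109569-75128439, + strand) was at 202 CPM (194 to 210.5) and 278 CPM (267 to 289), a ratio of 1.37 (1.30 to 1.45). The other gene of the ring above 1 was *Mcm2*, at 326 CPM in wild-type and 397 CPM in knockout cells, a ratio of 1.22 (1.16 to 1.28). The remaining 3 lay close to 1 or just under it, with 0.969 (0.919 to 1.02) for *Mcm3*, 0.945 (0.896 to 0.997) for *Mcm7* and 0.922 (0.872 to 0.976) for *Mcm6*. Summed, the 6 ring genes amounted to 1514 CPM (1491 to 1536) in wild-type cells and to 1567 CPM (1542 to 1592) in knockout cells, a ratio of 1.04 (1.01 to 1.06), so their total was close to equal while its parts were not.

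The makeup of the ring's mRNA therefore differed between the libraries. Of the UMIs on *Mcm2* to *Mcm7*, the share of *Mcm5* went from 13.4% (12.9 to 13.9) to 17.7% (17.1 to 18.4) and that of *Mcm2* from 21.5% (20.9 to 22.2) to 25.4% (24.7 to 26.1), wild-type to knockout. The share of *Mcm4* went from 13.02% (12.5 to 13.5) to 9.31% (8.84 to 9.79). *Mcm4* and *Mcm5* had nearly equal UMIs in the wild-type library, 2294 and 2353, and 1362 and 2595 in the knockout library. Genes can differ in capture, so shares are compared between libraries and not between genes.

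The helicase partners outside the ring differed less. *Cdc45* was at 41.8 CPM in wild-type and 35.9 CPM in knockout cells, a ratio of 0.858 (0.744 to 0.987). The intervals of *Mcm10*, an activator of the helicase, and of the GINS genes *Gins1* and *Gins2* all included 1, at ratios of 1.04 (0.947 to 1.14), 1.09 (0.935 to 1.26) and 0.967 (0.870 to 1.07).

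The clamp and its loader were the lowest group, with a summed ratio of 0.758 (0.735 to 0.781), and they held all 3 genes past 1.5-fold. *Pcna* had 6340 UMIs and *Rfc1* to *Rfc5* 4439 in the wild-type library, and 3258 and 3296 in the knockout library. Without *Pcna* the 5 loader genes had a summed ratio of 0.925 (0.884 to 0.968), against 0.881 (0.844 to 0.919) for the licensing and 0.821 (0.795 to 0.848) for the nucleotide supply genes. *Pcna* (chr2:132249162-132253314, - strand), which encodes the ring that tethers polymerases to DNA and is the most counted gene of the set over both libraries, though behind *Mcm2* in the knockout library, had 545 CPM (531 to 558) in wild-type cells and 349 CPM (337 to 361) in knockout cells, a ratio of 0.640 (0.614 to 0.668). *Rfc4* (chr16:23113943-23127737, - strand), a small loader subunit, was at 20.9 CPM in wild-type and 10.1 CPM in knockout cells, a ratio of 0.484 (0.376 to 0.614), which rests on 243 and 94 UMIs. *Rfc3* (chr5:151642756-151651242, - strand), another small subunit, was at 67.9 CPM in wild-type and 44.1 CPM in knockout cells, a ratio of 0.650 (0.575 to 0.733), and its promoter is among those printed above. *Rfc1*, the large subunit, was lower as well, at 0.789 (0.728 to 0.855).

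The other two loader subunits went the other way. *Rfc2* was at 66.1 CPM in wild-type and 82.5 CPM in knockout cells, a ratio of 1.249 (1.13 to 1.38), and *Rfc5* at 90.6 CPM in wild-type and 109 CPM in knockout cells, a ratio of 1.20 (1.10 to 1.31). Of the UMIs on *Rfc1* to *Rfc5*, the share of *Rfc5* went from 23.8% (22.5 to 25.0) to 30.9% (29.3 to 32.5) and that of *Rfc2* from 17.3% (16.2 to 18.5) to 23.4% (21.96 to 24.9), while that of *Rfc3* went from 17.8% (16.7 to 19.0) to 12.5% (11.4 to 13.7) and that of *Rfc4* from 5.47% (4.82 to 6.18) to 2.85% (2.31 to 3.48). In both heteromers, then, subunits that act in 1 complex differed in opposite directions between the libraries. Both directions were common among all genes, with 29.2% of intervals wholly under 1 and 29.9% wholly over 1.

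**Figure D2:**
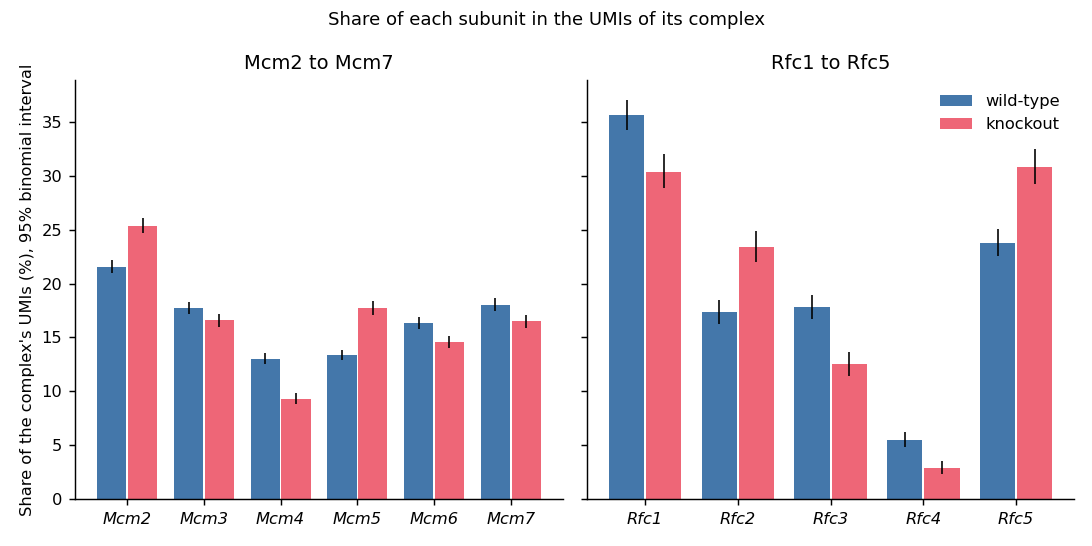
Bars give the share of each gene in the UMIs of its complex, in percent from 0, for the wild-type and the knockout library, with 95% binomial intervals for *Mcm2* to *Mcm7* on the left and *Rfc1* to *Rfc5* on the right. *Mcm2*, *Mcm5*, *Rfc2* and *Rfc5* have the larger share in the knockout library, and the other 7 genes the smaller one.

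Splits of this kind were also seen in the single-strand binding genes and in polymerase alpha with its primase. The single-strand binding genes summed to a ratio of 1.03 (0.970 to 1.09), with *Rpa3* at 18.6 CPM in wild-type and 13.2 CPM in knockout cells, a ratio of 0.708 (0.561 to 0.885). *Rpa2* was at 105 CPM in wild-type and 119 CPM in knockout cells, a ratio of 1.13 (1.04 to 1.23), and *Rpa1*, the main DNA-binding subunit, at a ratio of 0.977 (0.893 to 1.07). The ratio of *Rpa3* rests on 217 and 123 UMIs. Against genes of like GC content *Rpa3* was at 0.879 and *Rpa2* at 1.05. Within the 3 classes of cells from 2000 UMIs *Rpa3* ran from 0.566 to 1.06 and *Rpa2* from 1.15 to 1.26. In polymerase alpha and primase, the catalytic *Pola1* was at 103 CPM in wild-type and 72.4 CPM in knockout cells, a ratio of 0.703 (0.638 to 0.773), and the catalytic primase *Prim1* at a ratio of 0.727 (0.621 to 0.848). Their partner subunits were not lower, with *Prim2* at 29.0 CPM in wild-type and 36.4 CPM in knockout cells, a ratio of 1.26 (1.08 to 1.47), and *Pola2* at 1.05 (0.928 to 1.19). The share of *Prim2* in the UMIs of those 4 genes went from 13.3% (11.995 to 14.7) to 19.5% (17.7 to 21.4), and that of *Pola1* from 47.3% (45.3 to 49.3) to 38.8% (36.5 to 41.1). The extending polymerases were at or above 1, with 1.09 (0.955 to 1.246) for *Pold1*, 1.10 (1.02 to 1.20) for *Pold2* and 1.15 (0.997 to 1.32) for *Pole*. Set against genes of like GC content *Pold1* and *Pold2* were below 1, at 0.905 and 0.916, and within the 3 classes of cells from 2000 UMIs *Pold2* ran from 0.977 to 1.19. The 7 polymerase genes together had a ratio of 0.972 (0.931 to 1.02).

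The nucleotide supply genes were the group in which every gene lay below 1, 5 of 5, with a summed ratio of 0.821 (0.795 to 0.848). *Dut*, the dUTPase that keeps uracil out of DNA, had the smallest ratio, at 305 CPM in wild-type and 219 CPM in knockout cells, a ratio of 0.718 (0.680 to 0.758). *Rrm2*, the small subunit of ribonucleotide reductase, followed at 186 CPM in wild-type and 148 CPM in knockout cells, a ratio of 0.797 (0.745 to 0.853). *Tyms*, thymidylate synthase, had a ratio of 0.837 (0.752 to 0.930). The intervals of *Rrm1*, the large reductase subunit, and of *Tk1*, thymidine kinase, included 1, at 0.968 (0.902 to 1.04) and 0.978 (0.885 to 1.08). That all 5 lay below 1 did not hold in every setting. Against its GC class, the median of all genes of like GC content, *Rrm1* was at 1.18, and within classes of cells by depth *Rrm1*, *Rrm2* and *Tk1* reached 1.23, 1.10 and 1.07.

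In the lagging-strand group *Lig1*, the ligase that joins Okazaki fragments, was at 241 CPM in wild-type and 198 CPM in knockout cells, a ratio of 0.820 (0.773 to 0.870), and *Fen1*, the flap nuclease, had a ratio of 1.03 (0.941 to 1.13). Of the 3 further genes, *Tipin*, a fork protection factor, was at 101 CPM in wild-type and 76.9 CPM in knockout cells, a ratio of 0.764 (0.695 to 0.838). *Slbp*, which binds the stem-loop of histone mRNAs, was at 168 CPM in wild-type and 133 CPM in knockout cells, a ratio of 0.790 (0.735 to 0.848). *Ung*, a uracil-DNA glycosylase, was higher at 189.7 CPM in wild-type and 215 CPM in knockout cells, a ratio of 1.13 (1.07 to 1.20). *Dut* and *Ung*, which both limit uracil in DNA, thus lay on opposite sides of 1.

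The side a gene took moved with the GC content of its transcript. Across the 41 genes the log2 ratio correlated with the GC content of the longest transcript at Pearson's r 0.544 and Spearman's rho 0.581, and across 9831 genes of all kinds at 0.416 and 0.467. With the length of that transcript, on the log2 scale for r, the values were 0.330 and 0.243 across the 41 genes and -0.244 and -0.269 across all genes. These are correlations across genes of the same 2 libraries, and genes are not independent replicates. The median ratio of all genes climbed from 0.805 in the lowest of 10 equal classes of GC content to 1.21 in the highest. The 21 replication genes at up to 48.7% GC had a median ratio of 0.790, with 16 below 1, and the 20 genes above that 0.997, with 10 below 1. *Pcna*, *Mcm4*, *Rfc3*, *Rfc4* and *Pola1* had 45.3%, 45.5%, 43.2%, 43.5% and 41.5% GC, against 51.9% for *Mcm5*, 51.7% for *Mcm2* and 51.4% for *Rfc5*. The parts of GC content and of length in these differences were not tested.

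Each ratio was then set against the median of all genes in its own GC class, which was added once the data had been seen. The set's median became 0.897, with 29 genes below 1 and 12 above. *Cdt1*, *Pold1*, *Pold2* and *Fen1*, above 1 before, were then below it, at 0.843, 0.905, 0.916 and 0.923, and *Rrm1* was then above it. Only *Rfc4* was then at least 1.5-fold lower, at 0.549, beside 5.33% of all genes. *Prim2* was then at least 1.5-fold higher, at 1.53, beside 5.61%. On this scale *Pcna* was at 0.727, *Rfc3* at 0.789, *Dut* at 0.698 and *Mcm4* at 0.786, and *Mcm5*, *Rfc2* and *Rfc5* were at 1.27, 1.21 and 1.11. The order within the MCM ring and within the loader was thus kept at its ends.

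**Figure D3:**
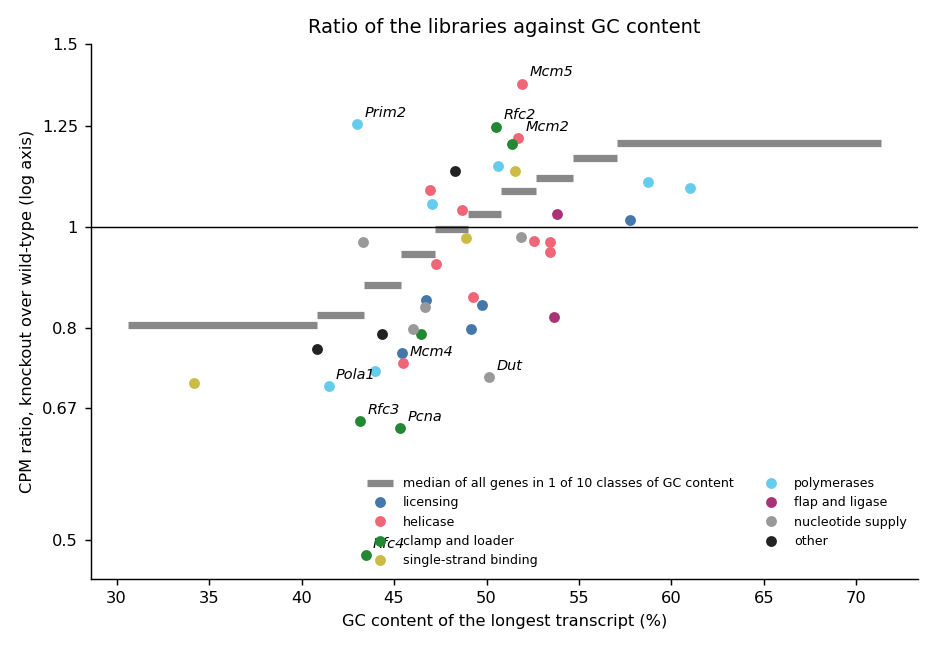
Points are the 41 replication genes by role, with the GC content of the longest transcript in percent on the x axis and the CPM ratio of knockout over wild-type on a log y axis. Grey bars give the median ratio of all genes in each of 10 classes of GC content, from 0.805 on the left to 1.21 on the right, and *Pcna*, *Rfc3* and *Rfc4* lie below the bar of their class while *Mcm5* and *Prim2* lie above theirs.

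The libraries also differed in depth, so the genes were summed within classes of cells by UMIs. The summed ratio was 1.14 (1.01 to 1.28) in cells of 500 to 1000 UMIs, 0.996 (0.886 to 1.12) from 1000 to 2000, 0.817 (0.788 to 0.847) from 2000 to 5000, 0.905 (0.890 to 0.921) from 5000 to 10000, and 1.01 (0.990 to 1.04) in cells of at least 10000 UMIs. The lower sum of the knockout library was thus seen in cells of 2000 to 10000 UMIs and not in the deepest cells, where 20 of 41 genes lay below 1. The share of all genes below 1 in the deepest cells was not counted, so that count has no background. The part of depth in the summed difference was not tested.

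In the 3 classes from 2000 UMIs up, 16 of the 41 genes lay below 1 in all 3 (39.0%), beside 27.3% of all genes, and 10 lay above 1 in all 3 (24.4%), beside 27.9%. *Pcna* ran from 0.434 to 0.755, *Rfc3* from 0.635 to 0.711, *Rfc4* from 0.303 to 0.612, *Dut* from 0.667 to 0.788 and *Mcm4* from 0.482 to 0.961. *Mcm5* ran from 1.21 to 1.70, *Mcm2* from 1.08 to 1.42, *Rfc2* from 1.18 to 1.52 and *Prim2* from 1.27 to 1.39. The other 15 genes crossed 1, most widely *Rrm2*, from 0.369 to 1.10, and *Tipin*, from 0.460 to 1.16. In cells of at least 10000 UMIs, among the genes with at least 200 UMIs there, none was at least 1.5-fold lower in the knockout library, and *Rfc2*, at 1.52 (1.24 to 1.86), was at least 1.5-fold higher. *Rfc4*, under that minimum with 40 and 42 UMIs, was at 0.612. The shares of all genes past 1.5-fold in these cells were not counted, so neither count has a background.

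Within each library the replication genes also split along the share of a cell's UMIs that fell on RP genes, though not every gene took the side it took between the libraries. The sum of the 41 moved less than *Pcna*, *Mcm4* and *Mcm5* did. From the class of 5 to 10% RP to 10 to 15% and to at least 15%, all 41 genes together were at 5355, 5471 and 5181 CPM in wild-type cells, and at 5025, 5071 and 4490.3 CPM in knockout cells. These are CPM of all UMIs, RP UMIs included. Per UMIs outside RP and mitochondrial genes they were at 5963, 6268 and 6260 CPM in wild-type cells. In knockout cells they were at 5664, 5853 and 5432 CPM on that scale. In cells thinned to 2000 UMIs, Spearman's rho of their share of the UMIs outside RP and mitochondrial genes with RP share was 0.104 in wild-type and -0.00543 in knockout cells. Single genes were far lower or far higher along the same classes.

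Over those 3 classes *Pcna* was at 679, 467 and 148 CPM in wild-type cells and 499, 355 and 71.7 CPM in knockout cells. *Mcm4* was at 241, 173 and 66.4 CPM in wild-type cells and 204, 145 and 44.4 CPM in knockout cells. *Mcm5*, its partner in the ring, was at 142, 221 and 429 CPM in wild-type cells and 199, 278 and 454 CPM in knockout cells. Both libraries thus had *Pcna* and *Mcm4* lowest and *Mcm5* highest in the cells richest in RP transcripts, and in each of these classes *Pcna* and *Mcm4* were lower and *Mcm5* was higher in the knockout than in the wild-type cells, for *Mcm5* in the last class within counting error, at a ratio of 1.06 (0.958 to 1.17).

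To describe this gene by gene, the cells with at least 15% RP, here called RP-rich, were set against those with 5 to 10%, here called RP-low, within each library, a contrast chosen after the data were seen. There were 201 RP-rich and 1031 RP-low wild-type cells and 322 and 481 knockout cells. RP-low is meant relative to RP-rich only, since these cells were 55.5% of kept wild-type and 29.7% of kept knockout cells. Cells under 5% RP were not in the contrast. Levels were CPM of the UMIs outside RP and mitochondrial genes, so that the RP UMIs themselves do not enter. At least 1.5-fold lower in RP-rich cells were 9 of the 39 genes with at least 200 UMIs in the wild-type contrast (23.1%), beside 42.1% of all genes, and 13 were at least 1.5-fold higher (33.3%), beside 26.6%. In the knockout contrast 10 of 36 were lower (27.8%), beside 40.3%, and 11 were higher (30.6%), beside 29.7%. Differences of this size were therefore common among all genes, and the set's shares were below the background for lower genes and above or close to it for higher ones.

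The same genes led on each side in both libraries. Lower by at least 1.5-fold in both were *Mcm4*, *Orc1*, *Pcna*, *Pola1*, *Rrm2*, *Slbp* and *Tipin*, and higher in both were *Cdc45*, *Dut*, *Lig1*, *Mcm5*, *Mcm7*, *Pola2*, *Pold1*, *Pold2*, *Rfc2* and *Tk1*. No gene was lower in one library and higher in the other by that fold. The shares of all genes past the fold in both libraries were not counted, so these counts have no background. *Rrm2* had the smallest ratio, going in wild-type cells from 256 (244 to 269) CPM in RP-low to 45.4 (34.7 to 58.5) in RP-rich cells, a ratio of 0.179 (0.135 to 0.229), and in knockout cells from 261 (244 to 278) to 34.8 (26.4 to 45.1), a ratio of 0.135 (0.100 to 0.175). *Mcm5* had the largest, going in wild-type cells from 159 (149 to 169) to 518 (479.7 to 558), a ratio of 3.26 (2.96 to 3.60), and in knockout cells from 224 (208 to 240.3) to 549 (514 to 586), a ratio of 2.45 (2.23 to 2.71). *Slbp* had ratios of 0.217 (0.166 to 0.274) and 0.139 (0.102 to 0.184), *Pcna* of 0.238 (0.207 to 0.270) and 0.155 (0.129 to 0.183), and *Mcm4* of 0.300 (0.243 to 0.364) and 0.235 (0.185 to 0.291), wild-type first. On the other side *Pold1* had ratios of 2.73 (2.18 to 3.40) and 2.28 (1.79 to 2.92), *Pold2* of 2.13 (1.83 to 2.46) and 2.32 (1.99 to 2.71), and *Lig1* of 1.82 (1.65 to 2.01) and 2.14 (1.89 to 2.41). Some genes, named here after their values were seen, lay on opposite sides of 1 in this contrast and between the libraries. *Dut* was at 0.718 in knockout over wild-type but at 1.66 (1.52 to 1.82) in RP-rich over RP-low wild-type cells, *Lig1* at 0.820 but 1.82, *Rfc3* at 0.650 but 1.40 (1.14 to 1.71), and *Prim2* at 1.26 but 0.678 (0.440 to 0.983). Over the replication genes, Spearman's rho of the wild-type RP contrast with the knockout over wild-type ratio was 0.508. Over all genes it was 0.631. The wild-type cells enter both comparisons.

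Over the 36 replication genes with at least 200 UMIs in both contrasts, the log2 ratios of the 2 separate libraries correlated at Pearson's r 0.976 and Spearman's rho 0.973. Over all 4742 such genes r was 0.966 and rho 0.968, so this likeness was not particular to replication. Within polymerase alpha, *Pola1* was lower, at 0.352 (0.268 to 0.450) and 0.365 (0.271 to 0.478), and its partner *Pola2* higher, at 2.08 (1.66 to 2.58) and 1.63 (1.28 to 2.08). The ring was split again, with *Mcm7* higher beside *Mcm5*, at 2.02 (1.84 to 2.22) and 1.75 (1.58 to 1.94), *Mcm4* lower, and *Mcm6* at 0.850 (0.750 to 0.959) and 0.834 (0.734 to 0.945). For 5 of the 36 genes, *Mcm2*, *Mcm5*, *Orc6*, *Pcna* and *Rpa1*, the intervals of the 2 libraries did not overlap, and the wild-type ratio was the higher in all 5 (13.9%), beside 7.13% of the 4742 genes. The knockout ratio was the higher in none, beside 1.22%. Of these *Rpa1*, at 0.870 (0.712 to 1.05) and 0.431 (0.340 to 0.537), and *Orc6*, at 0.981 (0.795 to 1.19) and 0.575 (0.434 to 0.745), were at least 1.5-fold lower in knockout cells only, and the difference itself could not be tested.

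**Figure D4:**
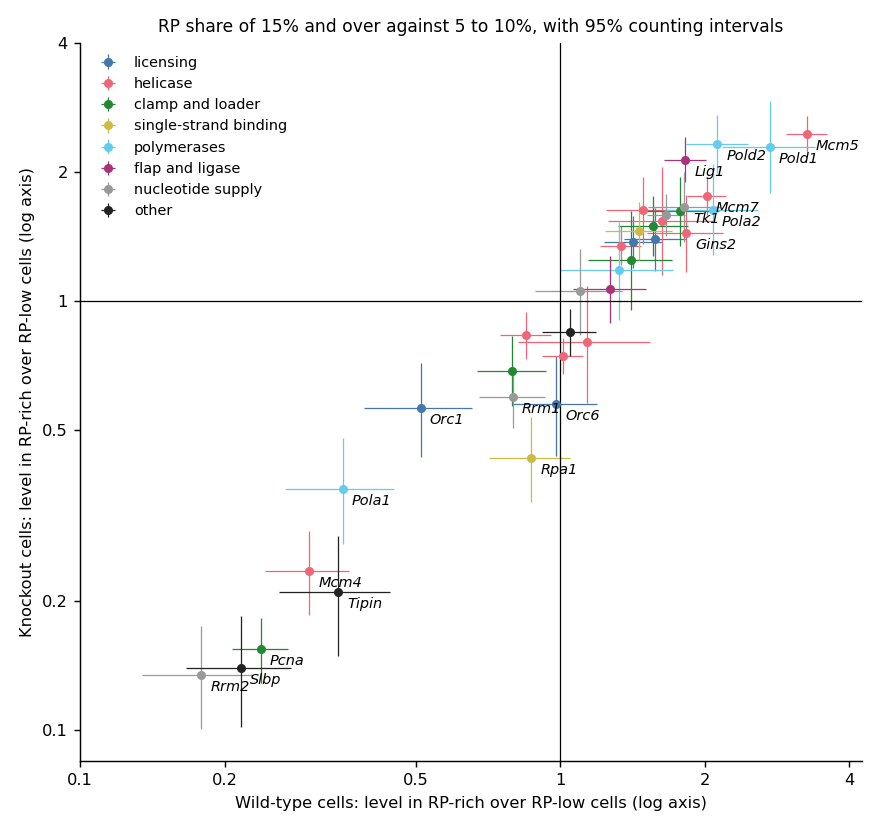
Each point is 1 of the 36 replication genes with at least 200 UMIs in both contrasts, with its level in RP-rich (at least 15% RP) over RP-low (5 to 10%) cells in the wild-type library on x and in the knockout library on y, both log axes, and bars for 95% counting intervals. The points lie near the diagonal, with *Rrm2*, *Slbp* and *Pcna* lowest and *Mcm5* farthest right.

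Other measures moved with RP share as well. RP-rich cells had a median mitochondrial share of 0.163% among wild-type and 0.254% among knockout cells, against 1.65% and 2.43% in RP-low cells. Median depth was 7545 against 6329 UMIs in wild-type and 5982 against 7863 UMIs in knockout cells, opposite in direction. GC content moved with this contrast too, at a Spearman's rho of 0.753 and 0.745 over the replication genes and 0.674 and 0.647 over all genes. RP-rich cells made up 10.8% of kept wild-type and 19.9% of kept knockout cells. The part of mitochondrial share, GC content and depth in these differences was not tested. With cells under 2000 UMIs, feeder cells and putative doublets left out, the counts stayed at 9 and 13 in wild-type and 10 and 11 in knockout cells. The genes were not all the same. In knockout cells *Cdc45* was then at 1.497, under the fold, and *Rfc5* at 1.507, over it.

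Below 5% RP the libraries differed more. There the 41 genes summed to 2269.8 CPM in 91 wild-type and 3906 CPM in 239 knockout cells. These cells were shallow, at a median of 830 and 1194 UMIs. The cells classed as feeder fibroblasts were low in replication genes, as 789.7 CPM in 44 wild-type and 1324 CPM in 26 knockout feeder cells, against 5511 and 4941 CPM in the other cells. Leaving the feeder cells out set the ratio of the libraries at 0.897 (0.886 to 0.908).

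Co-variation of single genes across cells was weak for most pairs. At 2000 UMIs per cell the 41 genes had a median of 11 UMIs in 1642 wild-type and 9 in 1110 knockout cells. At 5000 UMIs, in 1234 and 821 cells, the median r over the 820 pairs was 0.0172 and 0.0158, which is no finding in such sparse counts. Pairs of the same role had medians of 0.0215 and 0.0220, little above those of other pairs at 0.0162 and 0.0157. The highest values were in a group around *Pcna*. *Pcna* and *Slbp* had r 0.277 in wild-type and 0.298 in knockout cells, and *Pcna* and *Rrm2* had r 0.273 in wild-type and 0.305 in knockout cells. *Mcm4* and *Pcna* had r 0.243 in wild-type and 0.232 in knockout cells, and *Pcna* and *Tipin* had r 0.201 in wild-type and 0.272 in knockout cells. These are genes that were lower in RP-rich cells. Summed, the 41 genes correlated with the sum of the other replication genes, listed below, at r 0.607 in wild-type and 0.486 in knockout cells. With the sum of the G2/M genes, also listed below, r was 0.602 and 0.296, at 5000 UMIs with feeder cells kept.

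Some pairs from opposite sides of the RP contrast had negative values. *Mcm5* and *Pcna* had the lowest of all pairs, r -0.147 in wild-type and -0.201 in knockout cells, and *Mcm5* and *Slbp* had r -0.118 in wild-type and -0.142 in knockout cells. *Mcm7* and *Rrm2* had r -0.0712 in wild-type and -0.0914 in knockout cells. *Mcm5* and *Lig1*, both higher in RP-rich cells, had r 0.144 in wild-type and 0.133 in knockout cells. Other pairs of *Mcm5* with genes of that side were positive as well, at r 0.161 in wild-type and 0.124 in knockout cells with *Mcm7*, 0.111 in wild-type and 0.159 in knockout cells with *Pold2*, and 0.111 in wild-type and 0.125 in knockout cells with *Dut*. These are correlations over cells of 1 library each at equal depth, given without a test, and the pairs share their cells.

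**Figure D5:**
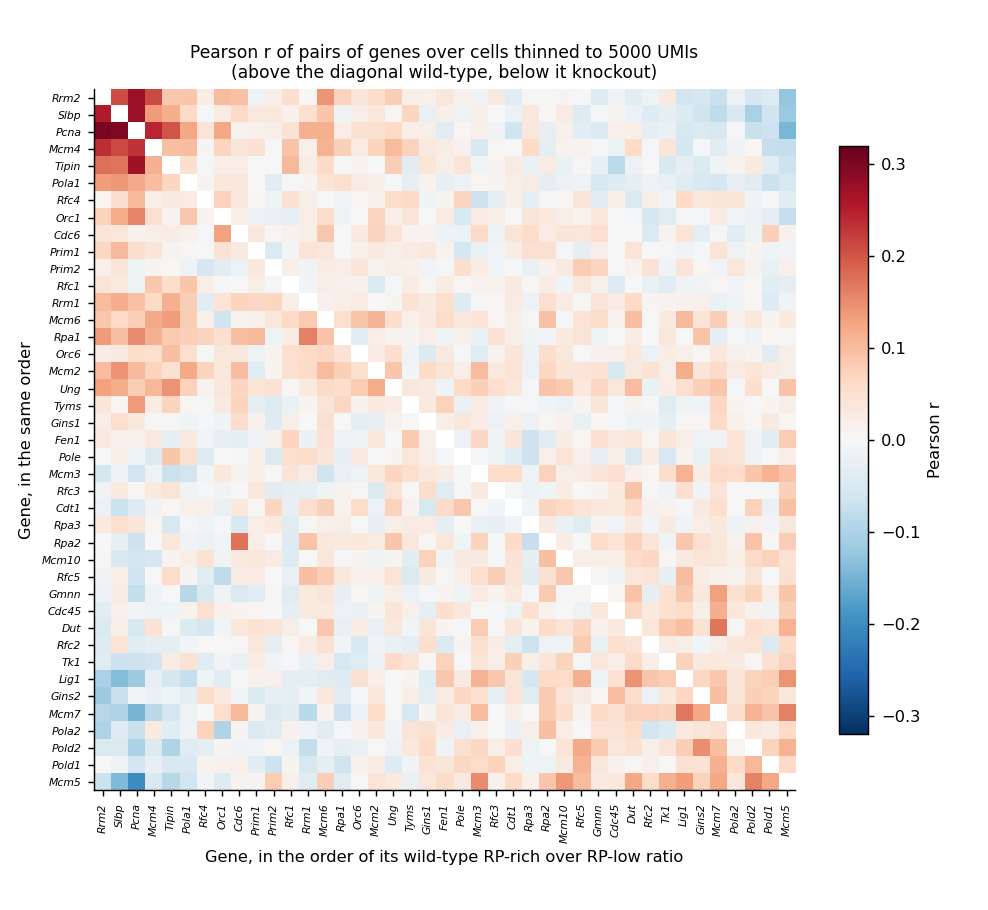
Colour gives Pearson's r over cells for each pair of the 41 genes, wild-type above and knockout below the diagonal, with the genes ordered on both axes by their wild-type RP-rich over RP-low ratio. The 5 genes at the upper left, from *Rrm2* to *Tipin*, form a red block in both libraries with values up to 0.305, and blue values down to -0.201 lie where they meet *Mcm5*.

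Each gene was also set against the sum of the other 40, at 2000 UMIs. The highest wild-type values were those of *Mcm6*, *Pcna* and *Ung*, at r 0.172, 0.145 and 0.136, and the same genes had 0.155, 0.0436 and 0.113 in knockout cells. The lowest were those of *Pole*, *Pold1* and *Rfc4*, at -0.0121, 0.00834 and 0.00949, and in knockout cells these had 0.0215, 0.0509 and -0.00540. At 5000 UMIs the values were larger, 0.249, 0.211 and 0.214 in wild-type and 0.210, 0.102 and 0.1995 in knockout cells for the first 3 genes, and 0.0356, 0.0529 and 0.0570 in wild-type and 0.0740, 0.0899 and 0.0551 in knockout cells for the last 3. At 2000 UMIs the cells were also split into 4 equal groups by their *Mcm2* to *Mcm7* UMIs. In the wild-type library the top group had 4212 CPM of the 35 other genes against 3411 CPM in the bottom group, 1.23 times as much. In the knockout library it had 3639 against 2755 CPM, 1.32 times. By the same split the other replication genes were at 1.08 and 1.05 times and the G2/M genes at 1.02 and 0.971, wild-type first. The G1/S regulators, also described below, were at 0.842 and 0.917 times and the RP genes at 1.10 and 1.09. At 5000 UMIs the 35 genes were at 1.21 and 1.24 times and the other replication genes at 1.09 and 1.08. The G2/M genes were then at 1.03 and 0.891, the G1/S regulators at 0.781 and 0.973 and the RP genes at 1.18 and 1.10. Feeder cells, low in replication genes, were kept in these groups. The sum of the ring genes and that of the nucleotide supply genes correlated at r 0.113 and 0.112 at 2000 UMIs, wild-type first. That value moved with the setting, to 0.0340 and -0.0155 at 1000 UMIs and to 0.279 and 0.193 at 5000 UMIs, and to 0.0543 in wild-type cells without feeder cells.

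The genes outside the set whose UMIs were most like the summed replication genes, among 3288 with at least 500 UMIs in each library and by the lower r of the 2 libraries, were *Ptma*, *Set*, *Ppia*, *Pfn1*, *Hsp90aa1*, *Ncl*, *Hist1h2ap*, *H2afz*, *Hist1h2ad* and *Gm3839*. Their lower r ran from 0.157 to 0.205. *H2afz* encodes a variant histone, and *Hist1h2ap* and *Hist1h2ad* are replication-dependent histone genes. The list changed with depth. At 5000 UMIs the 10 were *Hsp90aa1*, *Hmgb2*, *Serbp1*, *Ptma*, *Ncl*, *H2afz*, *Ran*, *Gm9531*, *Pou5f1* and *Set*, with a lower r of 0.239 to 0.321, and neither replication-dependent histone gene was among them. Feeder cells, low in replication genes, were kept at both depths. Their part in these values was not tested, so the lists do not describe ES cells alone.

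Other genes of replication and of the cell cycle, outside the set, were compared between the libraries in the same manner. Among the other replication genes 46 of 49 genes had at least 200 UMIs, with a median ratio of 0.875, 7 of them at least 1.5-fold lower and 1 at least 1.5-fold higher in the knockout library, beside 8.45% and 6.49% of all genes. *Hells*, a chromatin remodeller that aids DNA methylation, had the smallest ratio, with 309 CPM in wild-type and 153 CPM in knockout cells, a ratio of 0.497 (0.467 to 0.528). *Chtf18*, of the alternative clamp loader, had the largest, with 13.7 CPM in wild-type and 21.1 CPM in knockout cells, a ratio of 1.54 (1.246 to 1.91). Among the G1/S regulators 23 of 28 genes had at least 200 UMIs, with a median ratio of 0.881, and 8 were lower by that fold and none higher. There *Cdkn1b*, the CDK inhibitor p27, was at 28.1 CPM in wild-type and 11.5 CPM in knockout cells, a ratio of 0.409 (0.325 to 0.509), and *E2f7*, a repressive E2F factor, at 11.2 CPM in wild-type and 15.3 CPM in knockout cells, a ratio of 1.37 (1.07 to 1.75). Among the G2/M genes 50 of 50 genes had at least 200 UMIs, with a median ratio of 0.922, with 6 lower and none higher. There *Kif20b*, a mitotic kinesin, was at 126 CPM in wild-type and 55.9 CPM in knockout cells, a ratio of 0.445 (0.402 to 0.492), and *Plk1*, a mitotic kinase, at 89.3 CPM in wild-type and 117 CPM in knockout cells, a ratio of 1.31 (1.20 to 1.43).

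In the RP contrast the medians of these lists lay below that of the replication set. Of the other replication genes 21 of 38 were at least 1.5-fold lower and 5 higher in RP-rich wild-type cells, and 16 of 32 lower and 4 higher in knockout cells. Of the G1/S regulators 10 of 18 were lower and 3 higher in wild-type cells, and of the G2/M genes 22 of 50 were lower and 10 higher, beside 42.1% and 26.6% of all genes. In knockout cells 8 of 16 G1/S regulators were lower and 2 higher, and 20 of 47 G2/M genes were lower and 4 higher, beside 40.3% and 29.7%. The median wild-type ratios were 1.27 for the replication set, 0.587 for the other replication genes, 0.597 for the G1/S regulators and 0.752 for the G2/M genes, beside 0.816 over all genes. In knockout cells they were 1.21, 0.640, 0.757 and 0.735, beside 0.894. Whether the lists differ was not tested.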

How the data were processed

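Single-cell RNA-seq by inDrop was available for 1 wild-type and 1 *Lin28a* knockout library. The authors made digital expression matrices, and the deposited values are UMI counts of each gene in each barcode, not normalized. A further column counts ambiguous UMIs per gene (14 wild-type and 7 knockout UMIs for the 41 genes). The submitters' processing notes name mm10 and Seurat 2.3.4, and the aligner is not given in the sources used here. Gene identifiers without their version took their symbols from the GENCODE M21 annotation (GRCm38), with 54079 of 54146 found there.

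The 41 genes, the gene lists and the alternatives were chosen with earlier results of these data known. Cells were kept at 500 or more UMIs and a mitochondrial share up to 0.2, as in the methods of the study. Doublets were kept, and Scrublet in scanpy 1.11.5 marked 27 wild-type and 18 knockout cells (1.45% and 1.11%). Counts were summed over cells and divided by the total, with exact Poisson intervals for CPM, exact binomial intervals for shares and a binomial interval for a ratio of counts. 0.5 was added to each count for a ratio. Cells were thinned at random (seed 1) to 2000 or 5000 UMIs for correlations. Feeder cells had at least 3 UMIs and 0.2% of UMIs on *Col1a1*, *Col1a2* and *Col3a1*. Python 3.11.15, numpy 2.4.6 and scipy 1.17.1 were used, and the ratio step was tested on simulated data.

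Named were *Pcna*, the genes past 1.5-fold, the smallest and largest ratio of each role group and list, the genes with the 3 highest and 3 lowest correlations and the 10 genes most like the sum. The remaining genes of the set were added so that all are accounted for, and those of the RP contrast and the gene pairs were chosen after their values were seen. Protein sequences were not analysed here.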

Additional observations from a re-analysis of the deposited data

How the results depend on the processing

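No paired analysis was possible because there is 1 library per condition, and no replicate could be left out. The cells of at least 10000 UMIs, the GC classes, the thinning to 5000 UMIs and the stricter choice of cells in the RP contrast were added after seeing the data. The summed ratio of 0.916 was 0.897 without feeder cells, 0.930 with RP and mitochondrial genes out of the total, 0.885 with median-of-ratios scaling, which shifts every log2 ratio by 0.05, 0.893 as a mean of shares per cell and 1.01 in cells of at least 10000 UMIs, where the median ratio of the genes with at least 200 UMIs there was 1.03 and that of all 41 genes 1.003. The 3 genes at least 1.5-fold lower became 5 with the mean of shares, 0 in cells of at least 10000 UMIs, where *Rfc4* had under 200 UMIs and was not counted, 1 against the GC classes, 1 at a fold of 2 and 14 at the smaller fold tried. None was higher by 1.5-fold, but 1 was in cells of at least 10000 UMIs and 1 against the GC classes. At that smaller fold 2 were higher. The shares of all genes past the fold were counted only for the main setting and against the GC classes. The counts with the mean of shares, in cells of at least 10000 UMIs and at the other folds therefore have no background, and nothing about the set is concluded from them. The Spearman correlation of the summed genes with RP share was 0.153 in wild-type and 0.121 in knockout cells at 1000 UMIs, and 0.0263 and -0.0848 as a share of all UMIs. The r of the ring and nucleotide supply genes was 0.0340 and -0.0155 at 1000 UMIs, 0.344 and 0.290 without thinning, and 0.279 and 0.193 at 5000 UMIs, wild-type first, and 0.0543 in wild-type cells without feeder cells. The causes were not tested beyond what each setting itself changes. Counts per gene in single cells were low, so correlations near 0 at this depth do not show that genes vary independently.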
